A study of Mus musculus with 6 samples.

Results

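The genes described here encode the junctions that hold epithelial cells together. They were taken by name as a set of 35 members of tight, adherens, desmosomal and gap junctions and of the polarity complexes that place them, out of 17256 genes in the deposited table, and all 35 were found. The measurements come from RNA sequencing of epithelium taken from the antrum, the part of the stomach next to the duodenum, of C57BL/6 mice labelled as having atrophic gastritis. According to the labels, every animal was first given the alkylating carcinogen MNNG and a drug spelled Ranitine for 20 weeks. Of the 6 libraries, 3 came from mice then given PEEPA-P5 by gavage for 2 weeks, and the other 3 from mice given vehicle for 2 weeks. The compound carries a code name alone, so nothing is said of its structure, and no library of untreated healthy stomach was analysed here. Whether each library stands for its own mouse is not stated in the labels, so the spread behind every p-value is that between libraries and may be technical.

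Tight junctions seal the space between neighbouring epithelial cells near their apical end. Their strands are built from claudins, some of which form a barrier and some a pore for ions, and are anchored to the cytoskeleton by scaffold proteins. Below them, adherens junctions couple cadherins to actin through catenins, desmosomes couple their own cadherins to keratin filaments, and connexin channels join the cytoplasm of adjacent cells. In the stomach this layer keeps acid and pepsin in the lumen, and claudin-18 is the claudin that marks gastric epithelium.

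Total counts per library ran from 16388844 to 16903545. Levels between genes are given as TPM, a share of transcripts that the authors scaled by transcript length. Differences between groups are given on CPM, counts divided by library size after TMM scaling, with values listed in the order of libraries 1, 2 and 3 of each group. The general epithelial markers Krt8 and Krt19 lay at or above 4874 CPM in every library, and the pit cell list was at 150524 to 185379 summed CPM with PEEPA-P5 and 118687 to 138708 summed CPM with vehicle. Parietal and chief cell markers were also present and uneven, and libraries PEEPA-P5 3 and vehicle 3 stood apart, as described with the marker lists.

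Expression of the junction genes spanned a wide range, and a few members carried most of it. On the TPM scale 10 members averaged 100 or more over the 6 libraries, 14 lay between 10 and 100, 6 between 1 and 10, and 5 below 1. Cldn18 (Entrez 56492) had the highest mean at 619.5 TPM, followed by Gjb1, a connexin best known from liver, at 493 TPM. E-cadherin (Cdh1) and its partner alpha-catenin (Ctnna1) came next at 251 and 239 TPM, and their ranges over the 6 libraries overlapped. Perp, Jup, Ctnnb1, Epcam, Tjp3 and Crb3 made up the rest of the upper tier, between 104 and 207 TPM. At the other end, Gjb2, Cldn8, Cldn15, Cldn10 and Cldn1 averaged between 0.0433 and 0.957 TPM. Cldn1, Cldn10 and Cldn15 were left out by the expression filter, with at most 3, 4 and 29 counts in any library, so 32 members were tested.

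**Figure D1:**
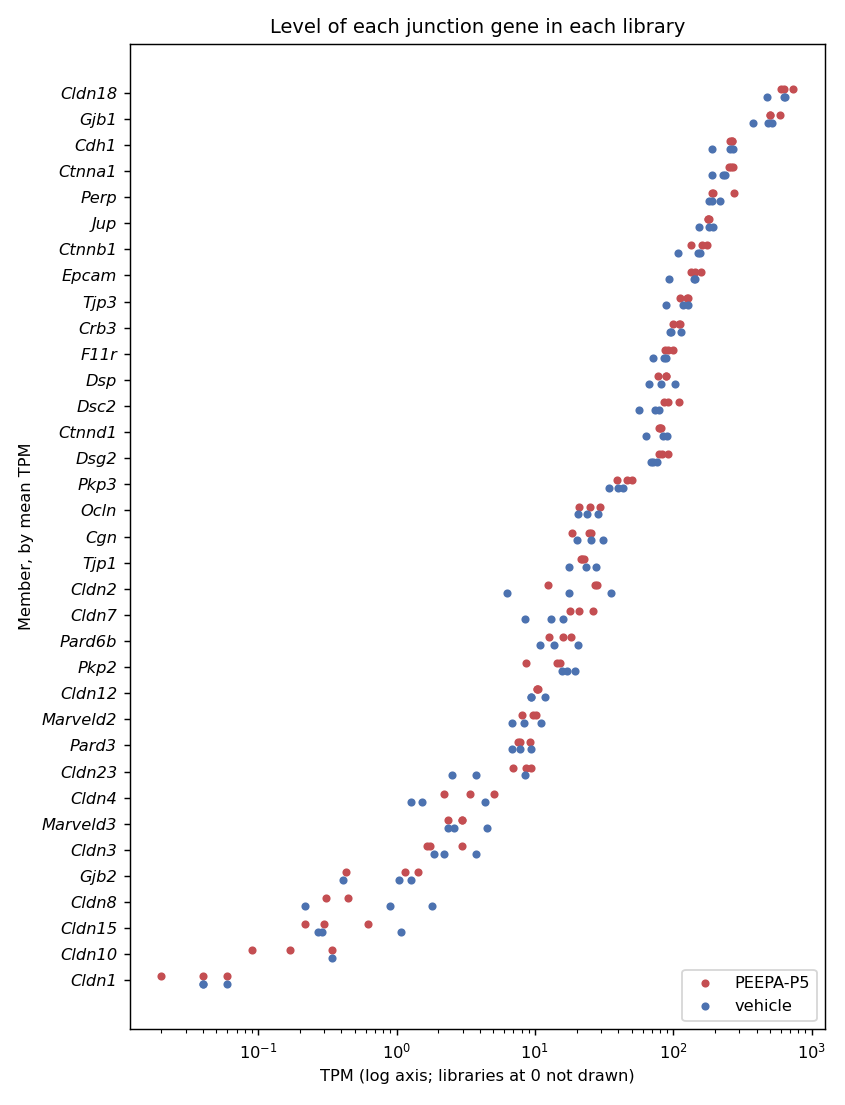
Level of each of the 35 junction genes (rows, ordered by mean) in each library, in TPM on a log axis, with PEEPA-P5 libraries in red above vehicle libraries in blue. Cldn18 and Gjb1 sit at the top of the range, and 5 members lie below 1 TPM on average; libraries at 0 are not drawn.

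The comparison of PEEPA-P5 with vehicle asked which transcripts differ in gastritis mice that received the compound, and no junction gene passed the test. With edgeR's quasi-likelihood test and Benjamini-Hochberg adjustment over 13071 genes, 0 of the 32 tested members had an adjusted p under 0.05, as was the case for 0% of all tested genes. Limma-voom called 0 genes. DESeq2 called 0 members as well, whereas it called 0.304% of all genes as higher and 0.484% as lower. The lowest DESeq2 adjusted p of a member was 0.0803, for Cldn7. Of the 32, 27 had a log2 difference above 0 under TMM scaling, against 49.4% of all tested genes. The same number, 27, lay above the median of all tested genes under TMM scaling. Scaling libraries to epithelial markers shifts all genes nearly together, by -0.39 at their median, and leaves 4 members above 0. Under such a shift the count above the median of all genes, again 27, could hardly change, so it does not test the pattern. The members' median was 0.24, against -0.005 for all tested genes. At an unadjusted p under 0.05 there were 5 members higher with PEEPA-P5, or 15.6%, beside a background of 5.92%, and 0 lower, beside 6.14%. These 5 were Cldn7, Dsc2, Ctnna1, Dsg2 and Epcam. The 3 PEEPA-P5 libraries lay above all 3 vehicle libraries in 10 members, or 31.3%, beside 9.74% of all tested genes, and below them in 0 members, beside 10.7%. Among 14 tested general epithelial markers, 85.7% were above 0, 21.4% higher at an unadjusted p under 0.05, and 35.7% higher without overlap. For 9 tested pit cell markers these shares were 88.9%, 55.6% and 77.8%. High shares were thus not particular to the junction genes. With the label numbers as a block, 5 members were higher (Cldn7, Dsc2, Dsg2, Cldn23 and Ctnnb1), beside 6.62% of all tested genes, and 0 lower, beside 7.06%. In bulk tissue a difference in the share of epithelial cells and a difference in RNA per cell cannot be told apart.

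**Figure D2:**
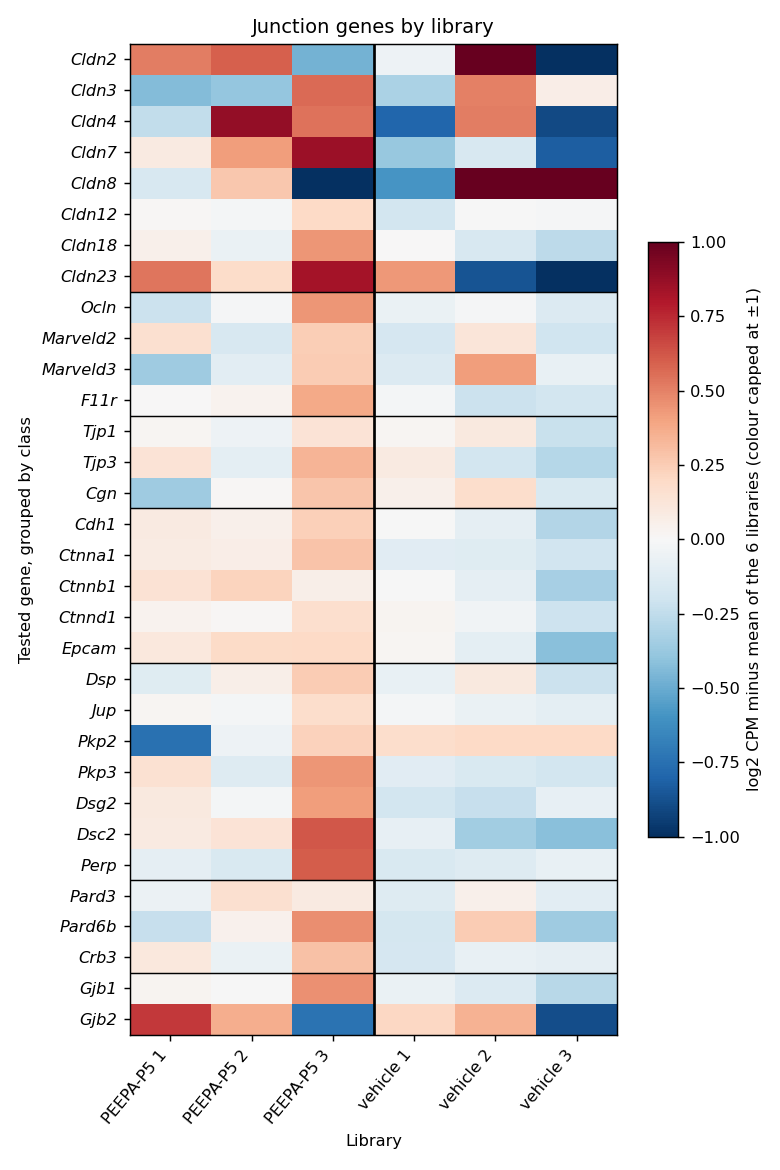
Log2 CPM of the 32 tested junction genes (rows, by class) in each library (columns, PEEPA-P5 left of vehicle), minus each gene's mean over the 6 libraries, with colours capped at 1 on either side. PEEPA-P5 3 holds the highest value in 25 of the 32 genes and vehicle 3 the lowest in 20.

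Libraries PEEPA-P5 3 and vehicle 3 lay at the ends for most members. PEEPA-P5 3 had the highest CPM in 25 of the 32 tested members, against 28.6% of all tested genes, and vehicle 3 had the lowest in 20, against 18.6%. The mean over members of log2 CPM, centred on the 6 libraries, was 0.00, 0.07 and 0.20 in PEEPA-P5 1, 2 and 3, against -0.09, 0.05 and -0.24 in vehicle 1, 2 and 3. Vehicle 2 thus lay above PEEPA-P5 1 and close to PEEPA-P5 2. The members' median log2 difference was 0.13 when PEEPA-P5 3 was left out, 0.17 when vehicle 3 was, and 0.08 when both were. At an unadjusted p under 0.05, the members higher numbered 2 without PEEPA-P5 1 (beside 4.38% of all genes tested in that fit), 7 without PEEPA-P5 2 (5.87%) and 3 without PEEPA-P5 3 (3.85%). They numbered 5 without vehicle 1 (7.77%), 3 without vehicle 2 (2.44%) and 3 without vehicle 3 (3.05%). The deposited TPM values gave smaller differences, with a median of 0.12 on the log2(TPM + 1) scale against -0.08 for all tested genes. On TPM the groups did not overlap in 4 members that were higher, Cldn7, Dsc2, Dsg2 and Ctnna1, beside 4.04% of all genes, and in 1 that was lower, Pkp2, beside 12.8%.

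**Figure D3:**
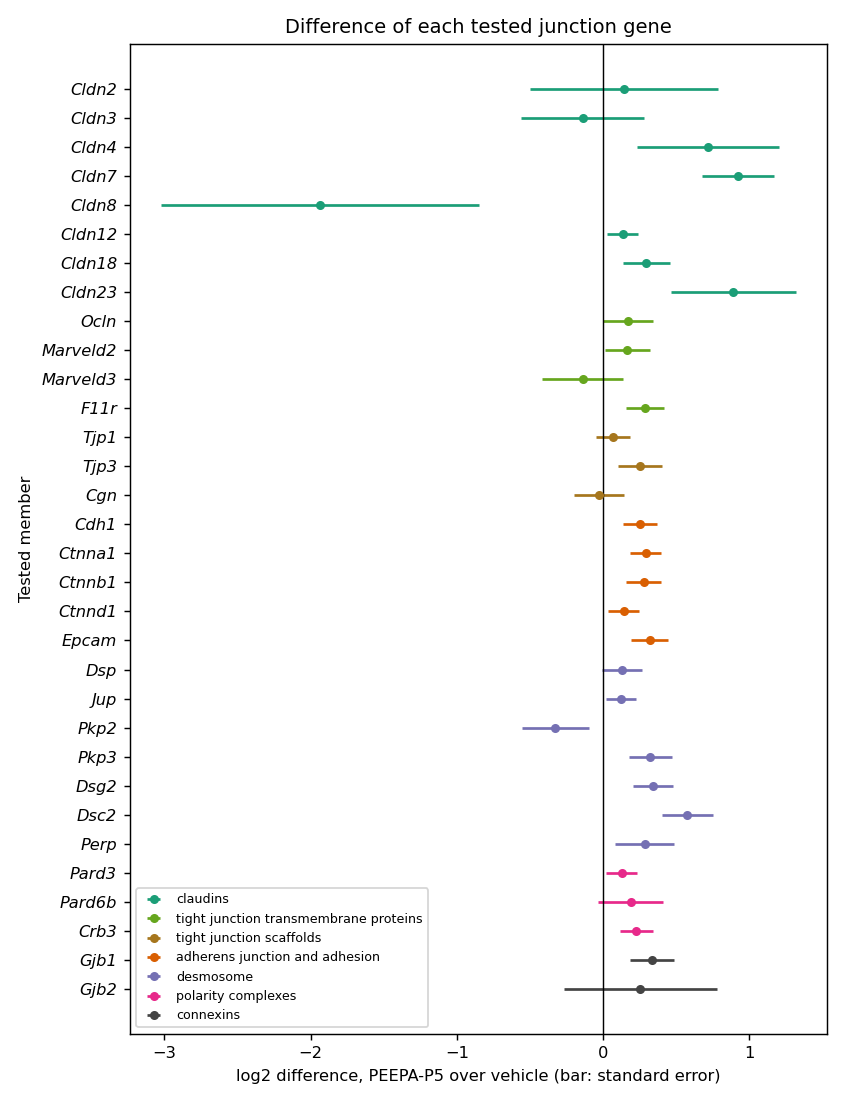
Fitted log2 difference, PEEPA-P5 over vehicle, of each tested junction gene (rows, coloured by class), with bars of 1 standard error. Points right of 0 are higher with PEEPA-P5, as for 27 of the 32 genes under TMM scaling. Scaling to epithelial markers shifts all genes nearly together and leaves 4 of the 32 above 0. Cldn8, Cldn2 and Gjb2 have the widest errors.

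Among the claudins, 8 of 11 were tested, 6 with a log2 difference above 0 and 2 below. Cldn18 supplied 90.3 ± 1.34% of all claudin TPM with PEEPA-P5 and 91.5 ± 2.22% with vehicle (SD, n = 3 each, over 19 claudins in the table). By library it stood at 1630.3, 1505 and 2138 CPM in the PEEPA-P5 libraries, against 1578, 1407 and 1313 CPM in the vehicle libraries. The groups overlapped, since vehicle 1 lay above PEEPA-P5 2, and the log2 difference was 0.29 (SE 0.16, edgeR adjusted p 0.476). Cldn18 is known to use alternative first exons in lung and stomach, and the gene counts do not separate these forms.

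Cldn7 (Entrez 53624), a basolateral claudin that binds the adhesion protein EpCAM, had the smallest p of any member. Its values were 17.3, 21.7 and 29.4 CPM in the PEEPA-P5 libraries, against 12.4, 14.5 and 9.095 CPM in the vehicle libraries. Every PEEPA-P5 library lay above every vehicle library, and the means were 22.8 ± 6.15 CPM in the PEEPA-P5 group, against 12.01 ± 2.73 CPM in the vehicle group (SD, n = 3 each). The log2 difference was 0.92 (SE 0.25), at an unadjusted p of 0.00712 and an adjusted p of 0.412 in edgeR. Within the claudin family its share of TPM was 2.55, 3.08 and 3.27% with PEEPA-P5, against 1.87, 2.22 and 1.66% with vehicle, and the groups did not overlap. Because Cldn18 supplied most claudin TPM, this share is close to Cldn7 over Cldn18. It rests on the same libraries and reads, so it is not separate evidence. Across the alternatives tried, the log2 difference of Cldn7 stayed between 0.54, without both libraries numbered 3, and 1.09, without PEEPA-P5 1. The value under scaling to epithelial markers was here taken relative to that scaling's shift of all genes.

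In the remaining tested claudins the groups overlapped. Cldn2, which forms a cation pore, was at 59.03, 62.6 and 29.8 CPM in the PEEPA-P5 libraries, against 39.9, 83.7 and 13.6 CPM in the vehicle libraries, a spread within each group wider than the difference between them (log2 difference 0.14, SE 0.64). Its sign changed without PEEPA-P5 2, without vehicle 3 and without both libraries numbered 3. Cldn23, a claudin of stomach and intestine, stood at 14.1, 11.04 and 17.3 CPM in the PEEPA-P5 libraries, against 13.2, 5.29 and 4.42 CPM in the vehicle libraries. Vehicle 1 lay inside the PEEPA-P5 range, the other vehicle libraries below it, and the log2 difference was 0.89 (SE 0.43). Cldn4, a barrier-type claudin, showed 3.49, 7.77 and 6.12 CPM in the PEEPA-P5 libraries, against 2.36, 5.99 and 2.18 CPM in the vehicle libraries, with overlapping groups. Cldn8, another barrier-type claudin, had 11, 16 and 0 counts in the PEEPA-P5 libraries, against 8, 31 and 65 counts in the vehicle libraries. It was at 0 in PEEPA-P5 3 and reached its highest count in vehicle 3, and its log2 difference of -1.93 had a standard error of 1.09. Cldn12 and Cldn3 had log2 differences of 0.13 and -0.14, and their groups overlapped. Cldn2, Cldn23, Cldn4 and Cldn8 are given by library because their libraries varied widely, a choice made after their values were seen.

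The other tight junction genes had log2 differences from -0.14 for Marveld3 to 0.29 for F11r, and 0 of the 7 had an unadjusted p under 0.05. F11r (Entrez 16456), the junctional adhesion molecule JAM-A, was the most abundant of the transmembrane group on TPM and stood at 196, 201 and 255 CPM in the PEEPA-P5 libraries, against 193, 168 and 172 CPM in the vehicle libraries. The groups were separate by a narrow margin between PEEPA-P5 1 and vehicle 1, with a log2 difference of 0.29 (SE 0.13). On TPM its groups overlapped. Occludin (Ocln) ranged over 70.2 to 111 CPM in PEEPA-P5 libraries, against 74.3 to 81.1 CPM in vehicle libraries, and without PEEPA-P5 3 its log2 difference of 0.17 turned to -0.04. Marveld2, the tricellulin of contacts where several cells meet, and Marveld3 had log2 differences of 0.17 and -0.14 within overlapping groups. Of the scaffolds, Tjp3 led on TPM and was at 359, 306 and 414 CPM in the PEEPA-P5 libraries, against 349, 287 and 269 CPM in the vehicle libraries, where vehicle 1 lay above PEEPA-P5 2. Tjp1, the best-known zonula occludens scaffold, and cingulin (Cgn) had log2 differences of 0.07 and -0.03, each smaller than its standard error. Of the Cgn sequence, 21.6% also occurs in transcripts of other genes, mostly of 1 other gene model, so its counts are uncertain.

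All 5 adherens junction and adhesion genes had log2 differences above 0, from 0.14 to 0.32, under TMM scaling. Each is smaller in size than the shift of -0.39 that scaling to epithelial markers gave the median of all genes, so all 5 are below 0 on that scale. In 4 of the 5 genes the PEEPA-P5 libraries lay above all vehicle libraries on CPM, beside 9.74% of all tested genes. On TPM this held for Ctnna1 alone, while the groups overlapped for Cdh1, Ctnnb1 and Epcam. E-cadherin (Cdh1, Entrez 12550), the cadherin of epithelia, was at 1126, 1098 and 1247 CPM in the PEEPA-P5 libraries, against 1053, 996 and 864 CPM in the vehicle libraries. The gap between the lowest PEEPA-P5 and the highest vehicle library was small, and vehicle 3 was the lowest of the 6. Its means were 1157 ± 79.3 CPM in the PEEPA-P5 group, against 971 ± 96.7 CPM in the vehicle group (SD, n = 3 each), with a log2 difference of 0.25 (SE 0.12). Alpha-catenin (Ctnna1, Entrez 12385), which ties the complex to actin, stood at 790.4, 781 and 909 CPM in the PEEPA-P5 libraries, against 688, 684 and 654 CPM in the vehicle libraries. The 3 vehicle libraries were close together here, and the log2 difference was 0.29 (SE 0.11, edgeR unadjusted p 0.0277). Beta-catenin (Ctnnb1), which also carries Wnt signals to the nucleus, was at 540.4, 569.5 and 510.3 CPM in the PEEPA-P5 libraries, against 488, 459.9 and 389 CPM in the vehicle libraries. It was the one adherens member with its highest library in PEEPA-P5 2 and its lowest PEEPA-P5 value in PEEPA-P5 3. The catenin Ctnnd1, which stabilises cadherins at the membrane, overlapped between groups, and 58.6% of its sequence is shared with a gene model that overlaps it on the same strand, so its counts are uncertain.

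Epcam (Entrez 17075), an adhesion protein of simple epithelia that holds claudins at the membrane, was at 264, 280.5 and 282 CPM in the PEEPA-P5 libraries, against 249, 229.6 and 184 CPM in the vehicle libraries. The PEEPA-P5 libraries were close to one another and above all vehicle libraries, of which vehicle 3 was the lowest. The log2 difference was 0.32 (SE 0.13, edgeR unadjusted p 0.0401, adjusted p 0.412). On TPM the groups overlapped, at 143, 157 and 135 TPM in the PEEPA-P5 libraries, against 140.3, 144 and 93.3 TPM in the vehicle libraries.

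**Figure D4:**
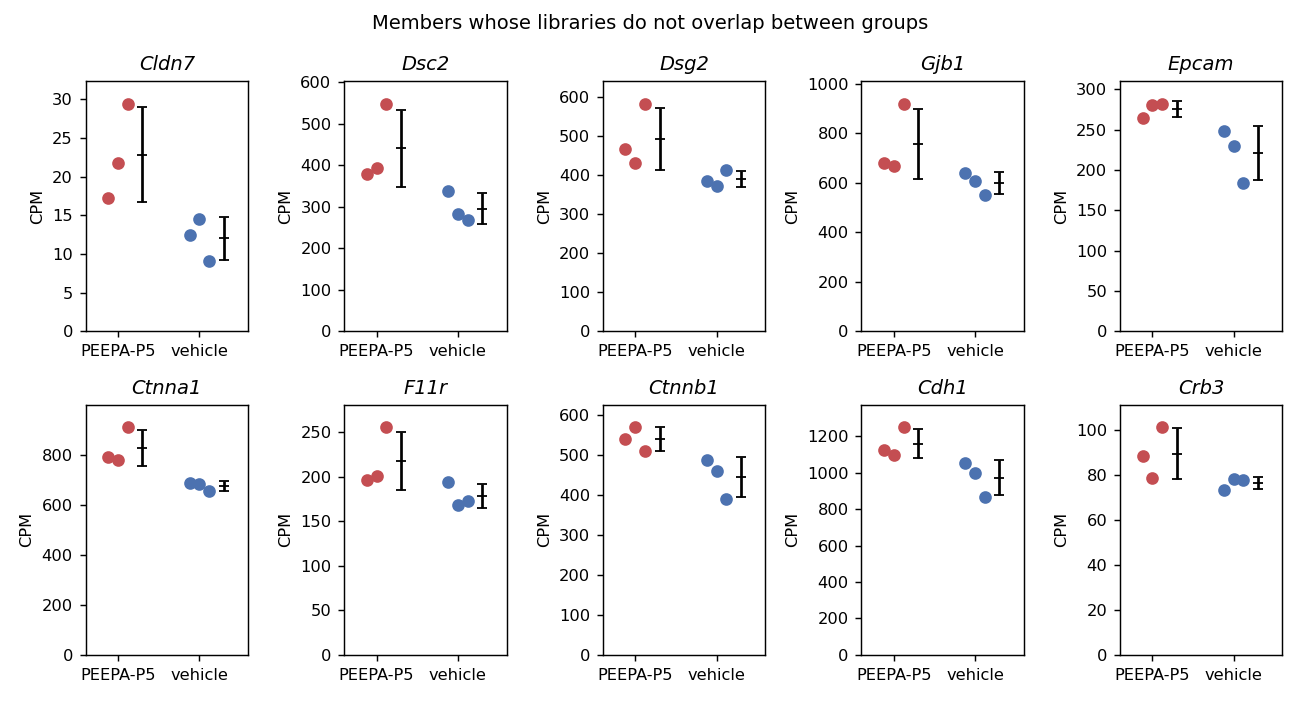
CPM of the 10 junction genes whose groups do not overlap, with PEEPA-P5 libraries in red left of vehicle libraries in blue, in the order 1, 2, 3, and the mean with 1 SD beside each group. Cldn7 and Ctnna1 show the widest gaps between the lowest PEEPA-P5 and the highest vehicle library relative to their level, and Crb3 and F11r the narrowest.

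The promoters of Epcam, Cldn7 and Cldn18 are printed because Epcam and Cldn7 encode binding partners that both differed at an unadjusted p under 0.05, and Cldn18 dominates the claudins. Each runs from 250 bases before to 50 after an annotated RefSeq start, 5′ to 3′ on the gene's strand, and capitals mark the E-box CACCTG or its reverse complement CAGGTG, the motif that Snail and Zeb repressors are known to bind.
Epcam (GRCm38.p6, chr17:87635729-87636028, plus strand): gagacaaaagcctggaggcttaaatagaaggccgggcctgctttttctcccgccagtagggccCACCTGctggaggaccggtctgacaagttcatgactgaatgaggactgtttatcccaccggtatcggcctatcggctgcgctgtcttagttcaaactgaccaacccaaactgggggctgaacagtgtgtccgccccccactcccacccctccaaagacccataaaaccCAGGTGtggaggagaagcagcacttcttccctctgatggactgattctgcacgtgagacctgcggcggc
Cldn7 (GRCm38.p6, chr11:69964529-69964828, plus strand): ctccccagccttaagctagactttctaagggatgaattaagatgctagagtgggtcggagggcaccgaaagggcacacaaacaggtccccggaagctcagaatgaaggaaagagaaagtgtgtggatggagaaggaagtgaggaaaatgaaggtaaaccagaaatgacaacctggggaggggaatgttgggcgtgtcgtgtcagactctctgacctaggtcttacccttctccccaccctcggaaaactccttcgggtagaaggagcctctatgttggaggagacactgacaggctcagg
Cldn7 (GRCm38.p6, chr11:69965171-69965470, plus strand): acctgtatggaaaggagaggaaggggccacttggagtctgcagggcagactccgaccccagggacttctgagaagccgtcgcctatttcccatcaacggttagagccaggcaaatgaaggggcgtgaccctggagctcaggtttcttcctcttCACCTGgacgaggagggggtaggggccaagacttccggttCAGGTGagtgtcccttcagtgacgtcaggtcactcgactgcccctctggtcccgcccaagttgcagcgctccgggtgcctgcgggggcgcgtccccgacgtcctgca
Cldn18 (GRCm38.p6, chr9:99710014-99710313, minus strand): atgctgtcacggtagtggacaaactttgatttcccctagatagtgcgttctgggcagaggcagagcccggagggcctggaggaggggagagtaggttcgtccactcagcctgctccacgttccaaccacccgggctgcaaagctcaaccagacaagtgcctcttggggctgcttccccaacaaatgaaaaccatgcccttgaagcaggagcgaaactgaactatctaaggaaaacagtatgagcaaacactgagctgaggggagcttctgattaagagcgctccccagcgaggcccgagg
Cldn18 (GRCm38.p6, chr9:99717218-99717517, minus strand): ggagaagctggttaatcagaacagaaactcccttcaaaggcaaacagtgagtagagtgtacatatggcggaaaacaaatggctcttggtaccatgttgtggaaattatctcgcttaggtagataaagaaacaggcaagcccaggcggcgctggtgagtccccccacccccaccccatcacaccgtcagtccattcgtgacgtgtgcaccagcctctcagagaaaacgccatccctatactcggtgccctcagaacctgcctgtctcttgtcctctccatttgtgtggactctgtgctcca

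The Epcam window holds 2 E-boxes, the second Cldn7 start holds 2 and the other Cldn7 start 0, and the Cldn18 starts hold 0. Of the 35 members, 25 matched the RefSeq promoter table by Entrez identifier, with 40 promoters. Searched on both strands, the E-box was present in 18 of these 40, or 45.0%, against 20.2% of all 32851 promoters of the same length, and 0 of the matches overlapped a TATAAA or GGGCGG match. The members' promoters were also richer in G and C, at a median of 60.7% against 52.7%, and the part of base composition in the motif count was not tested. The GC box GGGCGG was likewise more frequent in the members, in 26 of 40 promoters or 65.0%, against 35.7% of all promoters, and TATAAA was in 17.5% of the members' promoters against 13.6% of all. A match is a description of the letters in these windows and shows no binding.

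The desmosomal genes held the smallest p after that of Cldn7. Dsc2 (Entrez 13506), a desmosomal cadherin, stood at 380.3, 393 and 549 CPM in the PEEPA-P5 libraries, against 338, 282 and 267 CPM in the vehicle libraries. PEEPA-P5 3 was well above the rest, while PEEPA-P5 1 and 2 also lay above every vehicle library. The means were 441 ± 93.6 CPM in the PEEPA-P5 group, against 296 ± 37.6 CPM in the vehicle group (SD, n = 3 each), with a log2 difference of 0.58 (SE 0.17, edgeR unadjusted p 0.0121, adjusted p 0.412). The Dsc2 log2 difference was 0.39 when PEEPA-P5 3 was left out and 0.32 when vehicle 3 was left out as well. Its cadherin partner Dsg2 (Entrez 13511) was at 466, 431 and 583 CPM in the PEEPA-P5 libraries, against 384, 372 and 413 CPM in the vehicle libraries, with separate groups and a log2 difference of 0.34 (SE 0.13, edgeR unadjusted p 0.03896). Unlike in most other members, vehicle 3 was here the highest vehicle library.

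None of the other 5 desmosome genes had an unadjusted p under 0.05. Desmoplakin (Dsp), which binds keratin filaments, had a log2 difference of 0.13 with overlapping groups, at 656 to 849 CPM in PEEPA-P5 libraries, against 614 to 765 CPM in vehicle libraries. Plakoglobin (Jup), which ties desmosomal cadherins to desmoplakin, had a log2 difference of 0.12, and vehicle 1 lay above PEEPA-P5 2. Perp, a desmosome-associated membrane protein and p53 target that led this class on TPM, was at 322, 309 and 521 CPM in the PEEPA-P5 libraries, against 308, 313 and 325 CPM in the vehicle libraries. PEEPA-P5 3 alone stood out, and the other 5 libraries lay together. Pkp3, a plakophilin of epithelia, was at 122, 101 and 149 CPM in the PEEPA-P5 libraries, against 102, 98.95 and 96.9 CPM in the vehicle libraries, and only PEEPA-P5 2 lay inside the vehicle range. Pkp2, a plakophilin of simple epithelia and heart, had a log2 difference below 0 and is given by library after its values were seen. It was at 23.3, 37.8 and 46.1 CPM in the PEEPA-P5 libraries, against 44.3, 45.00 and 45.1 CPM in the vehicle libraries, with the vehicle libraries close together, PEEPA-P5 1 far below them and PEEPA-P5 3 just above (log2 difference -0.33, SE 0.23).

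The polarity genes, whose products set the position of the junctions, had log2 differences of 0.13 for Pard3 and 0.19 for Pard6b, partners in the Par complex, and 0.23 for Crb3. Crb3 (Entrez 224912), the apical Crumbs protein of epithelia, was at 88.5, 78.5 and 101 CPM in the PEEPA-P5 libraries, against 73.3, 78.1 and 77.4 CPM in the vehicle libraries, so that PEEPA-P5 2 and vehicle 2 nearly met. Of the connexins, Gjb1 (Entrez 14618) supplied 99.4 ± 0.416% of connexin TPM with PEEPA-P5 and 99.1 ± 0.287% with vehicle (SD, n = 3 each, over 17 connexins in the table). It stood at 681, 667 and 920.3 CPM in the PEEPA-P5 libraries, against 638, 608 and 553 CPM in the vehicle libraries, with separate groups on CPM, the highest value in PEEPA-P5 3, and a log2 difference of 0.33 (SE 0.15). Gjb2, its usual partner in mixed channels, had 52, 42 and 16 counts in the PEEPA-P5 libraries, against 38, 45 and 15 counts in the vehicle libraries, and the libraries numbered 3 were the lowest in both groups.

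Other genes of the same structures were taken from 10 pathway lists. Of 158 such genes found in the table, 116 were tested, of which 0 passed the adjusted threshold. At an unadjusted p under 0.05, 13 were higher with PEEPA-P5, or 11.2%, beside a background of 5.92%, and 7 lower, or 6.03%, beside 6.14%. Their median log2 difference was 0.07. Among other tight junction genes 0 of 22 were higher and 3 lower. Cgnl1, a paralog of cingulin, was at 21.4, 21.3 and 16.2 CPM in the PEEPA-P5 libraries, against 24.2, 32.6 and 45.5 CPM in the vehicle libraries, and Jcad and Amotl1, which act at endothelial and other cell contacts, had log2 differences of -1.42 and -1.01. Both Jcad and Amotl1 were lowest in PEEPA-P5 3, where endothelial markers were lowest as well. Mpp5, a scaffold of the Crumbs complex, had a log2 difference of 0.24, and the tricellular receptor gene Lsr had one of 0.22. Of the other claudin-type genes 1 was tested and was among the 13, Cldnd1, with a log2 difference of 0.25. The endothelial Cldn5 was not tested, its counts reaching 11 at most.

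Among other adherens genes, afadin (Afdn), which links nectins to actin, was at 168 ± 13.9 CPM in the PEEPA-P5 group, against 136 ± 14.8 CPM in the vehicle group (SD, n = 3 each). The placental cadherin Cdh3 and the LIM protein gene Ajuba lay lower, with log2 differences of -2.01 and -0.92, both at low CPM, and the actin-binding gene Lima1 had a log2 difference of 0.31. Of 4 other desmosome genes, envoplakin (Evpl), which also belongs to the cornified envelope, was at 158, 174 and 279 CPM in the PEEPA-P5 libraries, against 147, 113 and 114 CPM in the vehicle libraries, with separate groups. Pkp1, Ppl and Pkp4 had log2 differences of 0.92, -0.20 and 0.04. Other polarity genes numbered 17, of which 3 were higher at an unadjusted p under 0.05, or 17.6%, beside 5.92% of all tested genes. Dlg3, a membrane scaffold, had the smallest p of these lists and stood at 61.3, 62.9 and 66.6 CPM in the PEEPA-P5 libraries, against 48.7, 45.9 and 52.8 CPM in the vehicle libraries, with a log2 difference of 0.37 (SE 0.09, edgeR adjusted p 0.412). Its partner Lin7c and the small GTPase gene Cdc42 had log2 differences of 0.26 and 0.25. Both had separate groups on CPM and overlapping groups on TPM. Of the connexins and pannexins, Gjc1, Panx1 and Gja1 had log2 differences of -1.21, 0.23 and -0.16, each within 2 standard errors of 0.

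Of 12 tested genes of adhesion to the basement membrane, 2 were higher at an unadjusted p under 0.05, or 16.7%, beside 5.92% of all tested genes. In the other direction 0 were lower, beside 6.14%. The integrin gene Itga3 and the cytolinker gene Plec had log2 differences of 0.34 and 0.42, while Dst, another cytolinker gene, and the laminin gene Lama3 had log2 differences of -0.31 and 0.48. Among regulators of epithelial junction genes, Klf4, a factor of differentiated epithelium, was at 1186, 1293 and 1661 CPM in the PEEPA-P5 libraries, against 1069, 1107 and 1027 CPM in the vehicle libraries. Its groups were separate on CPM and overlapped on TPM. Grhl1 and the splicing factor gene Esrp1 had log2 differences of 0.26 and 0.28. Grhl2, a known activator of claudin and cadherin genes, had a log2 difference of 0.05, within its standard error. Of 20 tested regulators, 14, or 70%, had log2 differences above 0, beside 49.4% of all tested genes, and 6 below. On CPM the groups did not overlap in 3 that were higher, or 15%, beside 9.74% of all tested genes. They did not overlap in 1 that was lower, or 5%, beside 10.7%, which was Foxa2 with a log2 difference of -0.22. Of 10 mesenchymal genes and repressors, 9 had log2 differences below 0 and 1 above, while 49.4% of all tested genes were above 0. The endothelial, fibroblast and smooth muscle marker lists had 0 of 9, 0 of 8 and 0 of 7 tested genes above 0. At an unadjusted p under 0.05, 1 of the 10 was lower, beside 6.14% of all tested genes, Tgfb3 with a log2 difference of -1.45. Snai1, Snai2, Zeb1, Zeb2, Tgfb1 and Vim had log2 differences from -0.99 to -0.45, all were lowest in PEEPA-P5 3, and their groups overlapped. Of the contraction and protease genes, the myosin gene Myh14 was at 592 ± 94.6 CPM in the PEEPA-P5 group, against 393 ± 98.3 CPM in the vehicle group (SD, n = 3 each), with separate groups. The protease inhibitor gene Spint2, its target protease gene St14 and Marveld1 had log2 differences of 0.39, 0.29 and -1.14.

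Marker lists of other cell types differed across the same libraries. The summed CPM of the 35 members was 9256, 9136 and 11324 with PEEPA-P5, against 8758, 8449 and 7652 with vehicle. General epithelial markers, all 15 of them detected, ranged over 17956 to 21409 summed CPM with PEEPA-P5 and 13606 to 16989 summed CPM with vehicle, and the ranges did not overlap. In that list too the highest value was that of PEEPA-P5 3, and the median log2 difference of its 14 tested genes was 0.28, against 0.24 for the junction genes. Of its 15 genes, 8 also stand on the pathway lists, and Krt8 and Krt19 supply most of its counts. Endothelial markers, 10 of 10 detected, were at 18.5 to 94.5 summed CPM with PEEPA-P5 and 95.99 to 134 summed CPM with vehicle. Fibroblast markers, 8 of 8 detected, were at 34.2 to 409 summed CPM with PEEPA-P5 and 207 to 477 summed CPM with vehicle, and smooth muscle markers, 7 of 7 detected, at 24.00 to 283 summed CPM with PEEPA-P5 and 158 to 339.7 summed CPM with vehicle. In all 3 of these lists PEEPA-P5 3 was the lowest library, the same library in which most junction genes were highest. Leukocyte markers, 9 of 10 found in the table and detected, were at 6.92 to 34.2 summed CPM with PEEPA-P5 and 22.03 to 36.3 summed CPM with vehicle.

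Markers of the acid and enzyme glands were uneven as well. Parietal markers, 8 of 8 detected, were at 128 to 817 summed CPM with PEEPA-P5 and 874 to 6859 summed CPM with vehicle, and chief cell markers, 5 of 6 found in the table, at 2724 to 10220.5 summed CPM with PEEPA-P5 and 9496 to 89724 summed CPM with vehicle. Their highest library was vehicle 3, in which most junction genes were lowest. Enteroendocrine markers, 8 of 8 detected, were at 113 to 1955 summed CPM with PEEPA-P5 and 1385 to 2778 summed CPM with vehicle. Exocrine pancreas markers, 8 of 9 found in the table, were at 0 to 17.5 summed CPM with PEEPA-P5 and 16.9 to 963 summed CPM with vehicle, and neck and antral gland markers, 4 of 4 detected, at 7052 to 7814 summed CPM with PEEPA-P5 and 6621 to 9072 summed CPM with vehicle. Squamous markers, 8 of 12 found, were at 219 to 446 summed CPM with PEEPA-P5 and 174 to 209.9 summed CPM with vehicle, intestinal markers, 10 of 10 detected, at 1823 to 2411 summed CPM with PEEPA-P5 and 1045 to 1741 summed CPM with vehicle, and mesothelial markers, 4 of 5 found, at 0.175 to 0.807 summed CPM with PEEPA-P5 and 0.2301 to 0.701 summed CPM with vehicle. In vehicle 2 and 3 the pancreas sum was nearly all Amy2a5, at 954.7 and 806 CPM. The squamous sum was mostly Sprr1a, at 208 to 439 CPM with PEEPA-P5 and 170 to 207 CPM with vehicle. Detected here means any count in any library, and some of these markers lay near 0. In no library did Krt5 or Krt14 exceed 1 count, or Cela3b and Cdx1 2 counts, so detection alone does not show a cell type. The part of these marker shifts in the differences of the junction genes was not tested.

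**Figure D5:**
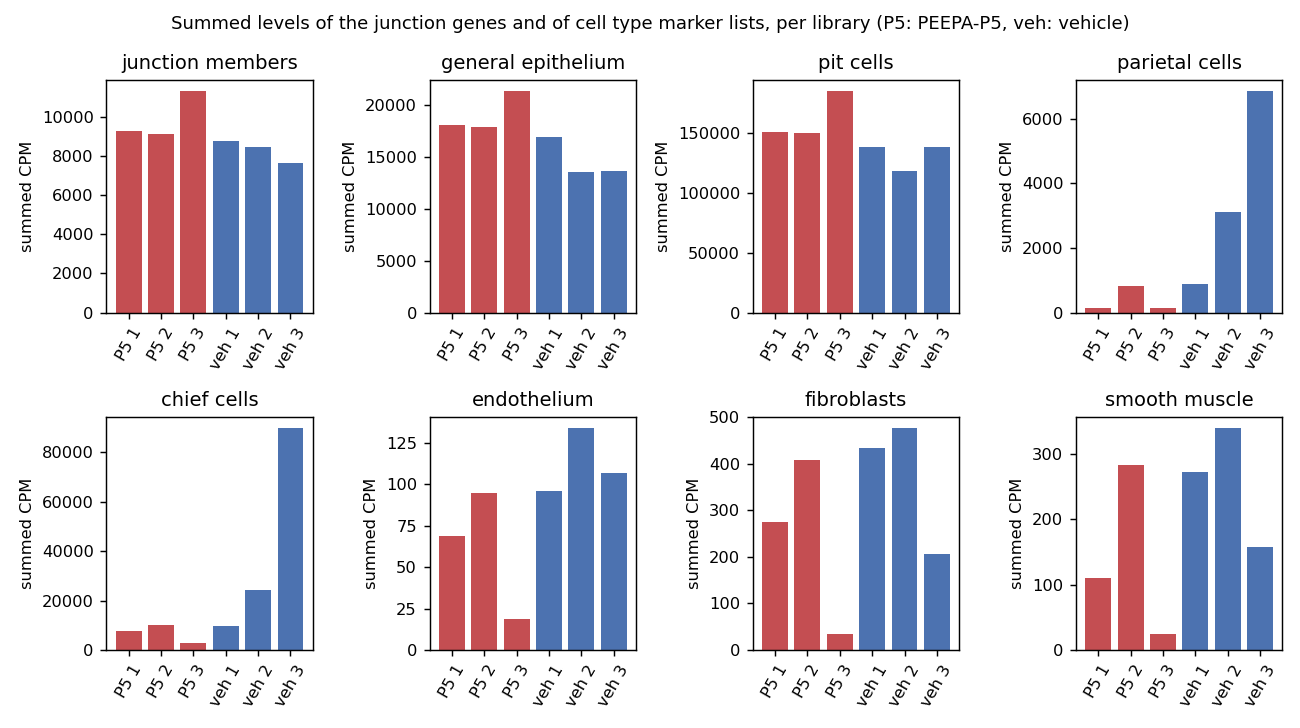
Summed CPM of the 35 junction genes and of 7 marker lists in each library (bars, PEEPA-P5 in red left of vehicle in blue). The junction sum is highest in PEEPA-P5 3, where endothelial, fibroblast and smooth muscle sums are lowest, and lowest in vehicle 3, where parietal and chief cell sums are highest.

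Scaling to the epithelial markers shifted the whole table. The count of members above the median of all genes, 27 of 32 as under TMM scaling, could hardly change under such a shift. When libraries were scaled by the summed counts of the general epithelium list in place of TMM factors, the median log2 difference was -0.15 for the 32 tested members and -0.39 for all tested genes, and 28 of the 32 members lay below 0. At an unadjusted p under 0.05, 0 members were then higher, beside a background of 0.337%, and 3 lower, beside 26.9%. The 3 were Pkp2, Cgn and Tjp1. This scaling shifted the median of all genes by -0.39. Relative to that shift the members' median was 0.23, a value that a shift common to all genes leaves nearly unchanged. Total-count scaling shifted the median of all genes by -0.082 and left 26 of 32 members above 0.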

How the data were processed

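RNA from antrum epithelium was sequenced in 6 libraries, 3 per group. Per the submitters' processing notes, the tools were Bowtie2 2.2.5 and RSEM 1.2.12 and the build mm9, listed without roles or settings. For every gene and library the authors deposited 3 measures, which the file headers name expected count, FPKM and TPM, beside means per group. FPKM values and the authors' means were not used. Of the deposited expected counts, 9.82% were not whole, and all were rounded. Of each library's deposited TPM, Tff1 alone took 20.8% to 28.6%.

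PEEPA-P5 was compared with vehicle by edgeR 4.0.16 (R 4.3.3) on these counts, without covariates, with TMM factors, edgeR's expression filter (13071 genes left), the robust quasi-likelihood test and Benjamini-Hochberg adjustment at 0.05. CPM values use TMM-scaled library sizes, and centred log2 CPM a prior count of 2. The fit was checked on simulated counts with log2 changes of 2 and 3, of which 94% and 97% were recovered, beside 17 false calls. Smaller changes, such as those of the members, were not simulated. Genes were drawn independently, without shifts shared by many genes such as those of the marker lists here. The recovered shares therefore do not tell how often a change of that size would be called in these libraries. No 2 libraries agreed within sampling noise (lowest chi-square over degrees of freedom 13.3). Library deviations from their group's mean had correlations of 0.237, 0.346 and 0.235 between the 2 libraries numbered 1, 2 and 3. As each is above 0.1, the label numbers were taken as possible pairs, a pairing that comes from the data, and the fits given are unpaired. The rule is not specific to the numbers, since PEEPA-P5 1 and vehicle 2 had a correlation of 0.176. The other differently numbered pairs ran from -0.349 to 0.0271.

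The members and lists were chosen with earlier results of these data known. By a stated rule, values per library are given for members at an unadjusted p under 0.05, with separate groups, or leading their class on TPM, and up to 4 genes of each pathway list with the smallest p are named, with a fixed set of genes of known role. Of the genes this rule names, 2 are not reported here. Alternatives were DESeq2 1.42.0, limma 3.58.1 (voom on counts, and its trend fit on log2(TPM + 1) and log2(TPM + 0.1)), other scalings and count filters, the replicate block, and libraries left out. Sequence sharing was counted as 31-base stretches of GENCODE M21 transcripts. Strandedness is not stated in the labels, so the counts of Ctnna1, Ctnnb1, Dsg2, Dsp, Tjp3, Crb3 and Cldn3, whose exons overlap a gene on the opposite strand in that annotation, may hold reads of that gene. Promoters come from RefSeq on GRCm38.p6, and no coordinates were converted to mm9.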

Additional observations from a re-analysis of the deposited data

How the results depend on the processing

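With no member past the adjusted threshold, the settings bear on sizes and signs rather than calls. Adjusted p-values of the 5 members named by unadjusted p stayed between 0.0803 and 0.782 over 18 alternatives, and Cldn7 and Dsc2 had an unadjusted p under 0.05 in 17 of the 18, all but the scaling by epithelial markers. DESeq2 called 101 genes over the whole table, 0 of them members, and put 9 members higher at an unadjusted p under 0.05, beside 6.51% of all genes. The count of higher members, each beside the share of all genes higher in the same fit, was 3 under total counts (2.39%), 2 on log2(TPM + 1) (2.04%), 2 on log2(TPM + 0.1) (2.01%) and 3 without both libraries numbered 3 (3.47%). Under the epithelial scaling it was 0 (0.337%), and 3 were lower, beside 26.9% of all genes. The members' median log2 difference was 0.188 under upper-quartile factors, 0.1498 under total counts, 0.122 and 0.129 on the TPM scales and 0.0828 without both libraries numbered 3. With the replicate block 5 members had an unadjusted p under 0.05 and were higher (Cldn7, Cldn23, Ctnnb1, Dsg2 and Dsc2), 0 lower, 0 genes passed the adjusted threshold, the median was 0.239, and no call changed. Leaving out each library in turn gave 0 to 1 genes called over the table, the 1 without vehicle 1, 0 members called, 2 to 7 members higher, beside 2.44% to 7.77% of all genes, 0 to 1 lower, the 1 being Pkp2 without PEEPA-P5 3, and medians of 0.134 to 0.272. The cause of these changes was not tested.

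Of 1276 values for 71 named genes, 1238 kept their sign, with values under the epithelial scaling taken relative to its shift of the median of all genes. That step returns these values close to their TMM size, so they could hardly change sign. Without it, 4 of the 32 tested members lay above 0 under the epithelial scaling, against 27 under TMM scaling. The log2 differences that changed sign were -0.005704 for Pkp4 and -0.000554 for Grhl2 under upper-quartile factors, -0.0267 for Tjp1, -0.0487 for Pkp4 and -0.0374 for Grhl2 under total counts, -0.0286 for Tjp1, -0.0365 for Pkp4 and -0.05305 for Grhl2 on log2(TPM + 1), and -0.0288 for Tjp1, -0.0366 for Pkp4 and -0.05798 for Grhl2 on log2(TPM + 0.1). Without both libraries numbered 3 they were -0.0191 for Cldn2, -0.0672 for Ocln, -0.07104 for Tjp1, -0.0415 for Dsp, -0.1402 for Pard6b, -0.0908 for Pkp4, 0.187 for Gja1 and -0.0541 for Grhl2. With 1 library left out, signs changed within ranges of -0.559 to 0.1102 for Cldn3, -0.186 to 0.121 for Cgn, -0.07204 to 0.581 for Gjb2, -0.2905 to 0.917 for Cldn2, -0.0357 to 0.307 for Ocln, -0.0166 to 0.383 for Pard6b, -0.0119 to 0.355 for Panx1, -0.735 to 0.369 for Gja1, -0.0548 to 0.187 for Grhl2, -0.856 to 0.0332 for Zeb1, -0.3197 to 0.0634 for Marveld3, -0.372 to 0.0534 for Ppl, -0.0236 to 0.136 for Tjp1 and -0.0961 to 0.136 for Pkp4. Low counts limit Cldn8, Cldn3, Cldn4 and Gjb2, and Cldn1, Cldn10 and Cldn15 were compared only in the fit without a count filter.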

Other observations

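Ratios of TPM between members compare them within a library. The 10 pairs were chosen after their values were seen, and the groups did not overlap in 4 of them. Each of these 4 holds Cldn7, Dsc2 or Pkp2, whose groups were already separate on TPM, so the ratios are not separate evidence. How often such ratios separate among gene pairs at large was not counted. The groups overlapped in the other pairs, among them Dsg2 over Dsp, Tjp1 over Tjp3 and Cldn2 over Cldn18. Cldn7 over Epcam was 0.125, 0.133 and 0.194 with PEEPA-P5, against 0.0924, 0.1096 and 0.0905 with vehicle, and Cldn7 over Cldn18 was 0.0283, 0.0345 and 0.0357 with PEEPA-P5, against 0.0203, 0.02499 and 0.0177 with vehicle. In both ratios the groups did not overlap. Dsc2 over Dsp, a desmosomal cadherin set against the plaque protein below it, was 1.11, 1.03 and 1.22 with PEEPA-P5, against 0.968, 0.716 and 0.843 with vehicle, also without overlap. The plakophilin ratio of Pkp2 over Pkp3 was 0.186, 0.368 and 0.302 with PEEPA-P5, against 0.426, 0.445 and 0.454 with vehicle, with all PEEPA-P5 libraries below all vehicle libraries. By contrast, the catenin ratio of Ctnnb1 over Cdh1 was 0.609, 0.656 and 0.524 with PEEPA-P5, against 0.585, 0.576 and 0.571 with vehicle, and the groups overlapped, as they did for Ctnna1 over Cdh1 at 0.981, 0.951 and 1.04 with PEEPA-P5, against 0.885, 0.876 and 1.01 with vehicle. The cadherin ratio of Dsc2 over Dsg2 also overlapped, at 1.03, 1.16 and 1.196 with PEEPA-P5, against 1.12, 0.962 and 0.821 with vehicle. These ratios do not depend on how libraries are scaled, and none was tested.

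Over the 32 tested members, CPM was higher with PEEPA-P5 in all 3 numbered pairs for 19 members, in 2 pairs for 6, in 1 pair for 7 and in 0 pairs for 0. Of all tested genes, 22.4% were higher in 3 pairs, 26.9% in 2, 26.1% in 1 and 24.6% in 0. The numbers were taken as possible pairs from the same data, so these counts are a description.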
